A study of Mus musculus with 2 samples.

Results

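The fatty acid oxidation and ketone enzymes were a set of 37 genes whose products carry fatty acids into mitochondria, shorten them, dispose of the reducing equivalents and burn ketone bodies. Reads that the deposited tables assign to these gene symbols were taken from all classes of transcript model except genomic, whose reads match no splicing pattern and were counted apart. All 37 were among the 15048 annotated genes with a read in either library, and 35 had at least 3 reads in both. The samples were hearts of 14-day-old females of an F1 hybrid strain, B6CASTF1/J, with no treatment named in the labels. There was 1 group of 2 libraries, biological replicates 1 and 2, each made from 2 µg of total RNA and sequenced as full-length cDNA with long reads. The labels word the animals differently in separate fields and mention several females, so whether a library came from a single animal or a pool cannot be told apart. The spread between the libraries may therefore be technical, and no comparison of conditions exists in these data.

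Mitochondrial fatty acid oxidation starts when a fatty acid is activated to its CoA ester and passed across the inner membrane as acylcarnitine. Inside, each turn of the spiral consists of dehydrogenation, hydration, a further dehydrogenation and thiolysis, and electrons from the initial step reach the respiratory chain through the electron transfer flavoprotein. The heart is known for drawing most of its energy from this pathway after birth, and the suckling heart also oxidises ketone bodies supplied by the liver.

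Each read was 1 sequenced cDNA molecule, which need not stand for a separate RNA molecule of the tissue. Levels are given as CPM, reads scaled to a total of 1000000, from 858071 reads in replicate 1 and 926560 in replicate 2, with genomic-class reads and spike-ins left out. A level therefore counts reads and not bases, so it was not divided by length, although long transcripts are copied less completely. A single read was worth 1.17 CPM in replicate 1 and 1.08 CPM in replicate 2, and where no read was seen the limit is 3 reads, which is 3.50 and 3.24 CPM. Errors are SD over the 2 libraries (n = 2) unless stated otherwise, and intervals are exact 95% Clopper-Pearson intervals that cover counting error only. The defining cardiomyocyte markers were detected in both libraries, 8 of 8, and summed to 42376 ± 121 CPM. Of these 8, 3 differed between the libraries (two-sided exact binomial test, adjusted over all genes), with Myl2 and Actc1 higher in replicate 2 (log2 ratios 0.32 and 0.15) and Nppa lower (-0.31). Liver markers were absent by the same rule, with 0 of 6 detected and 4 of 6 at 0 reads in both libraries. Of 8 skeletal muscle markers, 5 were at 0 in both, and the 2 detected, Ckm and Acta1, are also expressed in heart. Other cell types contributed too: fibroblast markers were detected, 6 of 6, and summed to 6498 ± 148 CPM, of which Col3a1 held 4791 CPM. Endothelial markers, also 6 of 6, summed to 526 ± 14.2 CPM. None of the fibroblast or endothelial markers differed between the libraries. In a tissue, fewer cells of a type and less RNA per cell cannot be told apart.

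The 37 genes together held 29131 CPM in replicate 1 and 29539 CPM in replicate 2, a mean of 29335 ± 289 CPM, which is 2.91% and 2.95% of the reads. The 4 most abundant, Hadhb, Acadvl, Acaa2 and Acadm, held 43.9% and 42.7% of these reads. They ranked 17th, 22nd, 32nd and 50th of all genes by mean level. In all, 9 genes were at 1000 CPM or more, 19 lay between 100 and 1000 CPM and 9 were below 100 CPM. By role, the 8 hydratases, hydroxyacyl dehydrogenases and thiolases summed to 11008 ± 69.7 CPM and the 9 acyl-CoA dehydrogenases to 7292 ± 28.1 CPM. The 3 electron transfer flavoprotein genes summed to 2956 ± 129 CPM, the 5 of activation and the carnitine shuttle to 2870 ± 49.5 CPM, and the 4 for unsaturated fatty acids to 2655 ± 179 CPM. Smaller sums were found for the 3 ketone body genes, 1538 ± 49.4 CPM, the 2 of malonyl-CoA control, 480 ± 0.675 CPM, and the 2 thioesterases, 457 ± 69.5 CPM. These sums grow with the number of genes in a role and do not rank single genes: 6 of the 9 acyl-CoA dehydrogenases were each lower than Crat, Cpt2, Cpt1b and Acsl1.

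**Figure D1:**
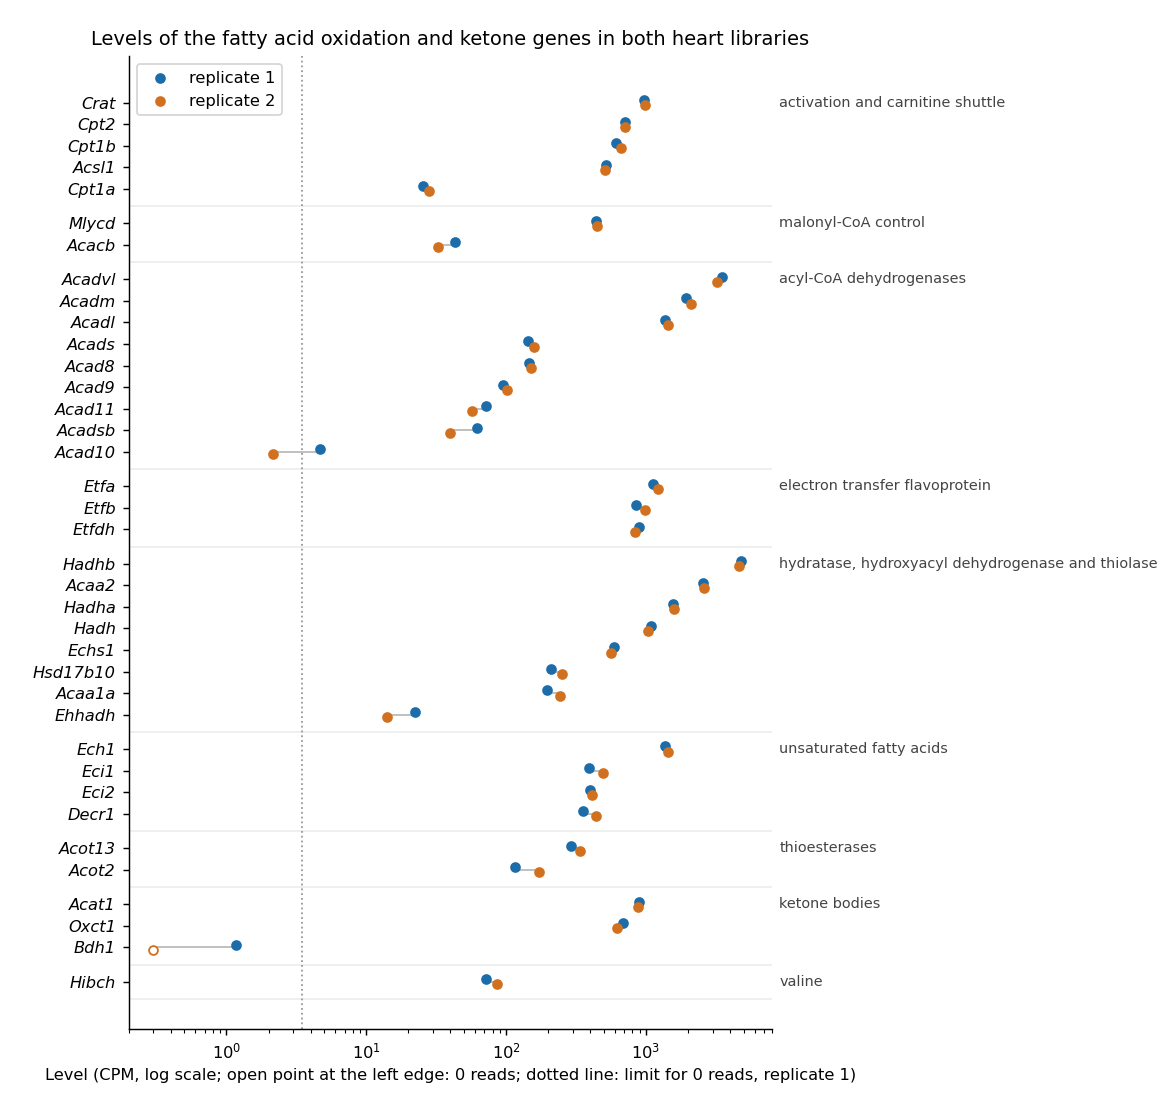
Level of each of the 37 genes in replicate 1 (blue) and replicate 2 (orange), in CPM on a log axis, grouped by role and ordered by mean within a role; grey lines join the libraries and the open point marks 0 reads. The points run from Bdh1 at 1 and 0 reads to Hadhb at 4127 and 4315 reads, and the libraries nearly coincide above 1000 CPM.

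Activation and entry were led by the shuttle enzymes. Crat, carnitine acetyltransferase, which buffers acetyl-CoA as acetylcarnitine, had 975 CPM in replicate 1 and 992 CPM in replicate 2. Cpt2, the inner-membrane palmitoyltransferase that returns acyl groups to CoA, had 709 CPM in both. Cpt1b, the muscle form of the outer-membrane enzyme that makes acylcarnitine and is the site of malonyl-CoA inhibition, had 607 and 667 CPM. The order of these 3 was the same in both libraries. Cpt1a, the form that predominates in liver, had 22 and 26 reads, or 25.6 and 28.1 CPM. Cpt1b thus outnumbered Cpt1a by 23.7-fold and 23.8-fold in reads, and the levels of these genes did not overlap. Another gene model annotated on the same strand over Cpt1b, Gm44502, held 4 and 27 reads, and counting them in gave a Cpt1b mean of 654 CPM.

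Acsl1, the long-chain acyl-CoA synthetase that predominates in heart, had 519 and 509 CPM and read out from alternative first exons 19929 bases apart on chromosome 8. The downstream first exon was used by 274 of 387 reads across the first acceptor in replicate 1 (70.8%, interval 66.0 to 75.3%). In replicate 2 it was used by 278 of 413 (67.3%, 62.6 to 71.8%). The upstream first exon took 103 reads (26.6%) and 122 reads (29.5%). So the downstream start led in both libraries and the intervals of the libraries overlapped. Both forms join the same second exon and carry the same coding sequence of 699 codons, so the choice lies in the 5′ UTR. The 250 bases before each start, on the plus strand of GRCm38.p6 from RefSeq's promoter and gene tables, are printed because the starts differ in base composition, with CpG-rich sequence only before the upstream start. They are given in lower case with nothing marked.
Acsl1 upstream start, chr8:46470787-46471036: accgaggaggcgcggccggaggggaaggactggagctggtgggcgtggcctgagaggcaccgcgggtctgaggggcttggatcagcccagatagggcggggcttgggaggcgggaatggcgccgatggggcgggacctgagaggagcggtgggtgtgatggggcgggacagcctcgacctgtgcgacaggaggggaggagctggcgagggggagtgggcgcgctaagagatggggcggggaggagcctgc
Acsl1 downstream start, chr8:46490716-46490965: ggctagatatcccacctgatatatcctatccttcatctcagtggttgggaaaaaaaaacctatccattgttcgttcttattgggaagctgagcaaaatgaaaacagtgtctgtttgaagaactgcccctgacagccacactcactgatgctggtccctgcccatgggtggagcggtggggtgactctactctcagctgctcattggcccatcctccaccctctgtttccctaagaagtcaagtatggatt
The upstream window holds 20 CpG dinucleotides at 72.0% GC, and the downstream window, which led in reads, holds 2 at 48.4% GC. The joins that tell the forms apart follow, with the last 15 bases of the first exon in lower case and the shared second exon in capitals.
Acsl1 downstream-start join: cggatggcacagatgAATTCTGCATAGAGA
Acsl1 upstream-start join: cgggcagcggaggagAATTCTGCATAGAGA

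Malonyl-CoA, the inhibitor of Cpt1, is made at the outer mitochondrial membrane by Acacb, acetyl-CoA carboxylase 2, and removed by Mlycd, malonyl-CoA decarboxylase. Mlycd had 437 and 447 CPM and Acacb had 43.1 and 32.4 CPM, from 37 and 30 reads. Mlycd therefore held 91.0% and 93.2% of the pair's reads. Acaca, the cytosolic carboxylase, had 2 and 4 reads, at or near the limit for 0. The level of Acacb counts mostly partial reads. Of its reads, 31 of 37 and 29 of 30 were on incomplete models, which hold only part of the annotated intron chain. Its leading form is 8788 bases long with 53 exons, and the longest incomplete model held 33 exons in replicate 1 and 44 in replicate 2.

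The acyl-CoA dehydrogenases catalyse the initial dehydrogenation, each for a range of chain lengths. Acadvl, the very long-chain enzyme of the inner membrane, had 3483 and 3238 CPM. Acadm, the medium-chain enzyme, had 1932 and 2094 CPM, and Acadl, the long-chain enzyme, had 1372 and 1430 CPM. Acads, the short-chain enzyme, had 145 and 159 CPM, so Acadm held 93.0% of the reads of Acadm and Acads in both libraries. The level thus dropped by about an order of magnitude at the short-chain step, and these levels did not overlap between genes. Acad8, isobutyryl-CoA dehydrogenase of valine breakdown, had 147 and 151 CPM. Acad9, which also serves assembly of respiratory complex I, had 94.4 and 101 CPM. Acad11 had 62 and 53 reads, Acadsb, the short/branched-chain enzyme of isoleucine breakdown, had 53 and 37 reads, and Acad10 had 4 and 2 reads. Acad10 was thus under the 3-read rule in replicate 2 and was not tested.

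Nearly all Acadvl reads that spanned it carried exon 3, a coding exon of 66 bases whose length is a multiple of 3. It was skipped, as in an annotated minor form, in 65 of the replicate 1 reads spanning it (2.26%, interval 1.75 to 2.87%) and in 71 of those in replicate 2 (2.45%, 1.92 to 3.09%). The minor form was therefore of the same size in both libraries. A further 6 and 5 reads used an acceptor within this exon that leaves 62 bases. Because these are compared with the same skipping reads, that shortened exon counted as partly included (6 of 71 and 5 of 76 reads), although the full exon was nearly always present. The exon lies on the minus strand at chr11:70014793-70014858 of mm10 and is printed from the GENCODE M21 transcript in capitals, between 6 bases of each neighbouring exon.
Acadvl exon 3: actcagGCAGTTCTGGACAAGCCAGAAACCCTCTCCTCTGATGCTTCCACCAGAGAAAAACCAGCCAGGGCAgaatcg
Acads was the only other gene of the set with a partly included exon under the same rule, which asked for 5 to 95% mean inclusion and at least 20 spanning reads in each library. An unannotated exon of 55 bases at chr5:115118777-115118831, within the first intron, was present in 9 of 117 reads in replicate 1 (7.69%, interval 3.58 to 14.1%) and 6 of 132 in replicate 2 (4.55%). Its length is no multiple of 3.

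Electrons from these dehydrogenases pass to the electron transfer flavoprotein, a dimer of the Etfa and Etfb products, and then through Etfdh, its ubiquinone oxidoreductase. Etfa had 1123 and 1217 CPM, Etfb 855 and 990 CPM, and Etfdh 886 and 840 CPM. The subunits of the dimer were near parity, with Etfa holding 56.8% (interval 54.4 to 59.1%) and 55.2% (53.0 to 57.3%) of the pair's reads. Both intervals lay above 50%. Etfb overlaps another same-strand gene model, Gm45233, that held 0 and 34 reads, and counting these in gave 855 and 1026 CPM for Etfb. With them, Etfb passed the test between the libraries (log2 ratio 0.26, exact binomial adjusted p = 0.0176).

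The trifunctional protein of the inner membrane carries out the last 3 steps for long chains, with the hydratase and dehydrogenase on the alpha subunit, Hadha, and the thiolase on the beta subunit, Hadhb. Hadhb had 4127 and 4315 reads, or 4809.6 and 4657 CPM, and Hadha had 1347 and 1463 reads, or 1569.8 and 1579 CPM. Hadhb reads were 3.06-fold and 2.95-fold as many as those of Hadha, and the proteins are known to assemble in equal numbers. The leading form of Hadha is 4017 bases long and that of Hadhb 2033 bases. Incomplete models held a mean of 10.7% of Hadha reads and 2.93% of Hadhb reads. Levels were not corrected for length, and whether length has a part in this ratio was not tested. The genes lie head to head on chromosome 5, with Hadha on the minus strand at chr5:30118304-30155162 and Hadhb on the plus strand at chr5:30155248-30184593. Only 85 bases separate their annotated 5′ ends, and this stretch, of 69.4% GC with 9 CpG dinucleotides, is printed in plus-strand lower case because both genes start from it.
Hadha to Hadhb interval, chr5:30155163-30155247: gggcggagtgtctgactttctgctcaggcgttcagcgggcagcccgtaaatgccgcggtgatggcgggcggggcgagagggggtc
Hadhb itself used alternative donors of its first exon, 43 bases apart. The upstream donor took 2158 of 4029 reads across the first acceptor in replicate 1 (53.6%, interval 52.0 to 55.1%) and 2331 of 4201 in replicate 2 (55.5%, 54.0 to 57.0%). The downstream donor took 1748 reads (43.4%) and 1728 reads (41.1%). The upstream donor led in both libraries. Both donors belong to annotated forms that encode the same 475 codons, so this choice too lies in the 5′ UTR. The joins are printed with the end of the first exon in lower case and the shared second exon in capitals.
Hadhb upstream-donor join: ttcgcggactctaagATTTCAGAATGACTA
Hadhb downstream-donor join: ctgatttccccacagATTTCAGAATGACTA

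Beyond the trifunctional protein, Acaa2, the mitochondrial 3-ketoacyl-CoA thiolase, had 2569 and 2619 CPM. Hadh, the short-chain hydroxyacyl-CoA dehydrogenase, had 1087 and 1037 CPM, and Echs1, the short-chain enoyl-CoA hydratase, had 593 and 559 CPM. In reads, the matrix enzymes for shorter chains thus followed the order thiolase, dehydrogenase, hydratase in both libraries. Hsd17b10, a dehydrogenase that also forms part of mitochondrial RNase P, had 210 and 251 CPM. The peroxisomal enzymes had the lowest means of this role, but the levels of Acaa1a and Hsd17b10 overlapped and only Ehhadh stood clearly below the rest. Acaa1a, a peroxisomal thiolase, had 197 and 242 CPM, and Ehhadh, the peroxisomal bifunctional enzyme, had 19 and 13 reads. Acaa1a shares 43.8% of its 31-base words with Acaa1b, which held 1 and 7 reads, so the split between these copies is uncertain.

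Unsaturated fatty acids need auxiliary enzymes that move or reduce double bonds. Ech1, the dienoyl-CoA isomerase, had 1379 and 1439 CPM. Eci1, the mitochondrial enoyl-CoA isomerase, had 393 and 494 CPM, Eci2, an isomerase found in mitochondria and peroxisomes, had 399.7 and 411 CPM, and Decr1, the 2,4-dienoyl-CoA reductase, had 357 and 437 CPM. Ech1 stood above the others in both libraries, and the levels of Eci1, Eci2 and Decr1 overlapped. Eci1 held 49.6% (interval 45.7 to 53.4%) and 54.6% (51.1 to 58.0%) of the reads of Eci1 and Eci2.

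Eci2, at chr13:34977748-35027096 on the minus strand, had the most divided 5′ end of the set. Its leading form held only 42.3 ± 1.05% of the reads that could be placed on a form. Alternative donors of its first exon, 184 bases apart, combined with alternative starts of exon 2, and the resulting first introns were counted over 337 and 372 reads. The upstream donor joined to the standard exon 2, which makes the leading form, took 140 reads (41.5%, interval 36.2 to 47.0%) and 151 reads (40.6%, 35.6 to 45.8%). The downstream donor joined to the same exon took 90 reads in each library (26.7% and 24.2%). The upstream donor joined to an exon 2 that is 98 bases longer took 51 and 64 reads (15.1% and 17.2%). The order of these 3 was the same in both libraries, while the other combinations stayed under 10%. Summed over exon 2 starts, the upstream donor was used in 61.7% and 62.4% of reads. The choice reaches the protein in the annotation: the leading form opens its frame in the first exon and has 391 codons, and the form with the downstream donor opens it in exon 2 and has 358. With the longer exon 2, the annotated form that uses the upstream donor opens its frame at the later start too. The 33 added codons are printed from the GENCODE M21 transcript, with the start codon of the leading form and the start codon shared by both forms in capitals.
Eci2 added reading frame: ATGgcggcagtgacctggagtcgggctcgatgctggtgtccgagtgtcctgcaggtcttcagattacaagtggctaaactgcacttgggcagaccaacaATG
Eci2 upstream-donor join: atgctggtgtccgagTGTCCTGCAGGTCTT
Eci2 downstream-donor join: gctgagtcccaaaggTGTCCTGCAGGTCTT
In the joins, capitals are the shared exon 2. The only unannotated form of the set with at least 10% of its gene's reads in each library carried the longer exon 2. That form had 47 and 58 reads, and its first intron spans chr13:34993329-34994013.

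**Figure D2:**
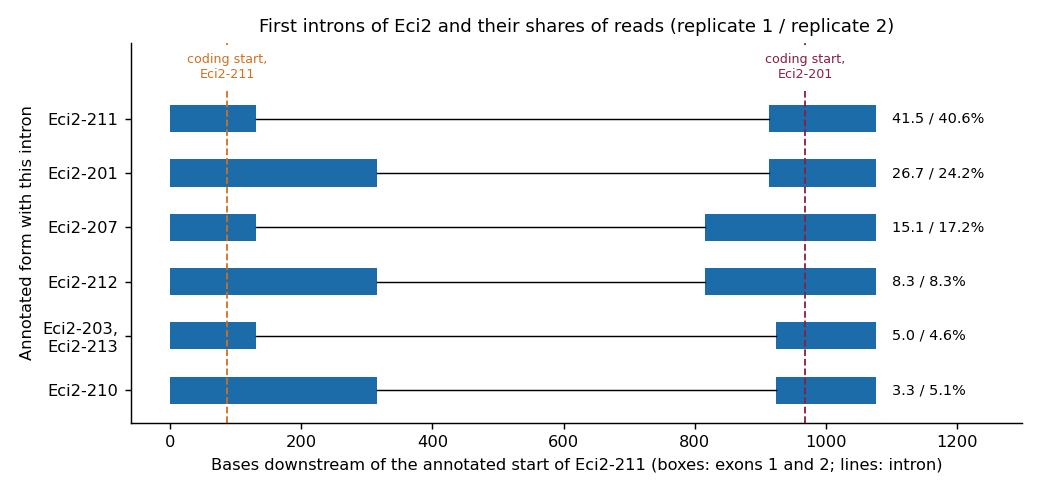
The 6 first introns of Eci2, to scale in bases downstream of the leading form's annotated start and labelled by annotated forms; boxes are exons 1 and 2, exon 1 is drawn from that start in each row although annotated starts vary, and dashed lines are the coding starts of the leading form (left) and of the downstream-donor form (right). The percentages are shares of the 337 reads of replicate 1 and the 372 of replicate 2, led by the leading form's intron at 41.5% and 40.6%.

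Thioesterases release free fatty acids from CoA. Acot13, a small mitochondrial-associated thioesterase, had 251 and 311 reads, or 293 and 336 CPM. Acot2, the mitochondrial long-chain thioesterase, had 99 and 158 reads, or 115 and 171 CPM. Acot2 shares 29.8% of its 31-base words with the neighbouring copy Acot1, a cytosolic enzyme with 90 and 104 reads, so the split between them is uncertain. Acot2 held 52.4% (interval 45.0 to 59.7%) and 60.3% (54.1 to 66.3%) of the reads of both copies.

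The genes of ketone body use were abundant except that of the entry step. Acat1, the mitochondrial acetoacetyl-CoA thiolase, had 889 and 882 CPM. Oxct1, the CoA transferase that commits acetoacetate to oxidation and is scarce in liver, had 683 and 622 CPM. Bdh1, the hydroxybutyrate dehydrogenase that precedes it, had 1 read in replicate 1, on an incomplete model, and 0 in replicate 2, against 586 and 576 reads of Oxct1. Bdh1, at chr16:31422280-31458901, was therefore under the limit of 3 reads in both libraries. Hibch, which hydrolyses 3-hydroxyisobutyryl-CoA in valine breakdown, had 62 and 80 reads, a mean of 79.3 ± 9.96 CPM.

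No gene of the set differed between the libraries after adjustment. Each gene's split of reads was set against the split of the library totals by an exact binomial test, two-sided, with Benjamini-Hochberg adjustment over all genes tested, those with at least 10 reads in the libraries together. Of 35 genes of the set tested, 0 passed, where 1.72% of all 9433 genes did (162 genes, 74 higher and 88 lower in replicate 2). Among all genes at 100 CPM or more, 107 of 1678 passed (6.38%). At an unadjusted p under 0.05 there were 8 of 35 (22.9%), beside 888 of all genes (9.41%). The latter share covers genes of all levels, whereas 28 of the 37 genes of the set were at 100 CPM or more. These shares were thus not matched for level. Of the 8, Acaa1a, Acadm, Acot2, Decr1, Eci1 and Etfb were higher in replicate 2, and Acadsb and Acadvl were lower. The smallest adjusted p-values were those of Eci1, at a log2 ratio of 0.33 (interval 0.13 to 0.54, exact binomial adjusted p = 0.0708), and Acot2, at 0.56 (0.19 to 0.94, exact binomial adjusted p = 0.0930). Both missed the threshold of 0.05. When incomplete models were left out both passed it, as did Etfb (exact binomial adjusted p = 0.0477 for Eci1, 0.0283 for Acot2 and 0.0137 for Etfb). With all models counted, Etfb stood at 0.21 (exact binomial adjusted p = 0.125) and Acadvl at -0.11 (adjusted p = 0.157). The median log2 ratio was 0.04 over the set and 0.0047 over all genes tested, with 23 genes of the set above 0 and 12 below. The test compares these libraries only.

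**Figure D3:**
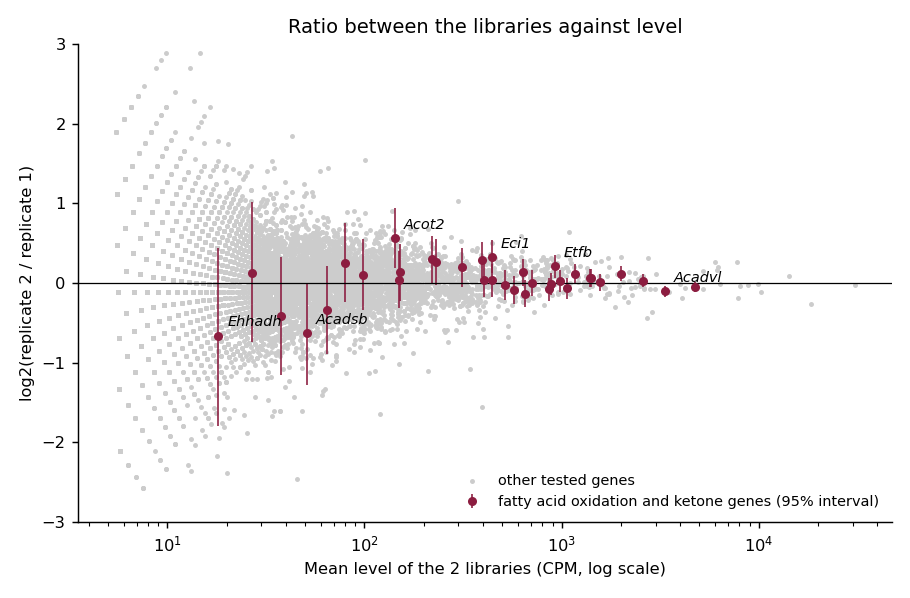
Log2 ratio of replicate 2 to replicate 1 against mean level in CPM on a log axis, for the 35 tested genes of the set (dark red, with exact 95% intervals) over all tested genes with reads in both libraries (grey; ratios beyond 3 in either direction lie outside the plot). The set lies close to 0 at high levels, Eci1, Acot2 and Etfb lie above it, and the intervals widen for Acadsb and Ehhadh, which had few reads.

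The summed level of adipocyte markers, brown ones included, was also larger in replicate 2. This list had 6 of 7 members detected and summed to 293 CPM in replicate 1 and 379 CPM in replicate 2. Ucp1, the uncoupling protein of brown fat, had 53 and 107 reads and passed the test (log2 ratio 0.90, exact binomial adjusted p = 0.0126), and Cidea had 87 and 129 reads. Adipoq, a marker of fat in general, had 16 and 13 reads, and Plin1 had 9 and 9, so the difference in the sum lay mostly with Ucp1 and Cidea. Lep had 3 and 0 reads. Of 6 lung markers, only Scgb1a1 was detected in both libraries, at 111 and 7 reads. It was lower in replicate 2 and passed the test (log2 ratio -4.10, exact binomial adjusted p = 6.8e-24). Sftpa1 had 5 and 0 reads, Sftpc had 2 and 1, and Sftpb, Ager and Foxj1 were at 0 in both. Among cardiomyocyte markers, Myl2, Actc1 and Nppa differed as given above. Ckm, from the skeletal muscle list, was lower in replicate 2 (log2 ratio -0.11, exact binomial adjusted p = 7.1e-05). Whether any of these has a part in the values of the set was not tested.

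Among the 32 genes of the set with at least 20 reads on annotated or recurrent spliced forms in each library, an annotated form led in all 32. The leading form held 99% or more of these reads in 18 genes and under 90% in 3, which is 9.38% of the set beside 30.98% of all 4348 such genes. The 3 were Eci2, Hadhb at 55.1 ± 1.52% on the upstream-donor form, and Acsl1 at 70.3 ± 2.20% on the downstream-start form. The median leading share over the 32 was 99.2%, and that of all such genes 98.2%. Neither comparison with all genes was matched for level. By Fisher's exact test between the libraries with adjustment over all genes, 0 of the 32 shares differed, and 0.023% of all genes did (1 gene). At an unadjusted p under 0.05 the counts were 0 and 96. The smallest value in the set was that of Hadhb (two-sided Fisher's exact p = 0.0542). For partly included exons the same test called 0 of 2 in the set and 0% of 1262 in all genes, and 0 and 36 had an unadjusted p under 0.05. Annotated noncoding forms were rare, with 21 of 22680 annotated reads of the set in replicate 1 and 29 of 24776 in replicate 2.

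**Figure D4:**
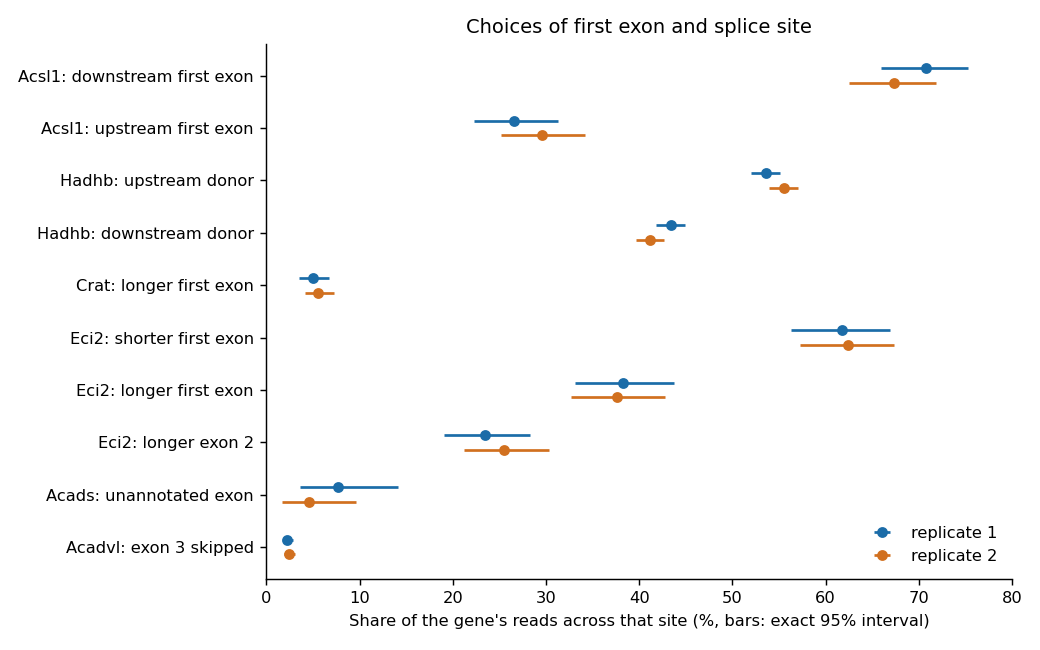
Share of reads, in percent, that used each first exon, donor or exon in Acsl1, Hadhb, Crat, Eci2, Acads and Acadvl, with exact 95% intervals, for replicate 1 (blue) and replicate 2 (orange). The intervals of the libraries overlap in each row, and the larger choices in Acsl1, Hadhb and Eci2 keep their order, with 70.8% and 67.3% for the downstream first exon of Acsl1.

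Unannotated spliced forms recurred, with at least 5 reads in each library, 22 times in 12 genes of the set. Of these, 12 joined known splice sites in a new way and 10 used a new splice site, and 7 differed from an annotated form by a shift of 10 bases or fewer or a short intron. Crat carried 4 of the 22. Its commonest unannotated form had 37 and 43 reads and used a first-exon donor 117 bases further downstream. That donor, annotated only in a form with a short frame of 36 codons, took 39 of 784 reads in replicate 1 (4.97%, interval 3.56 to 6.74%) and 47 of 847 in replicate 2 (5.55%, 4.11 to 7.31%). The minor donor was thus near 5% in each library. In Acaa2 a form lacking an annotated intron had 30 and 32 reads. In Acaa1a, forms of 13 exons had 7 and 10 reads and 6 and 10 reads. They began upstream of the leading form, which has 12 exons. In Acat1, 5 reads in each library skipped a coding exon of 65 bases, which is no multiple of 3. These forms were each a small part of their gene.

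Incomplete reads were few for most of the set. Over 34 genes with at least 20 reads in each library, the share on incomplete models had a median of 4.75% and ran from 0.933% for Eci2 to 90.2% for Acacb. Only Acacb and Acot13 exceeded 20%. Acot13, at 24.3 ± 2.87%, has a short leading form of 721 bases, and its incomplete reads were mostly of a single exon, 54 of 56 and 77 of 82. Those of the set as a whole mostly lacked the 5′ part, 80.8% and 79.0%. Across these genes the share and the length of the leading form had a Spearman rho of 0.27 and a Pearson r of 0.65. The genes share both libraries and the Pearson value includes Acacb, far from the rest on both axes, so the relation is a description only.

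**Figure D5:**
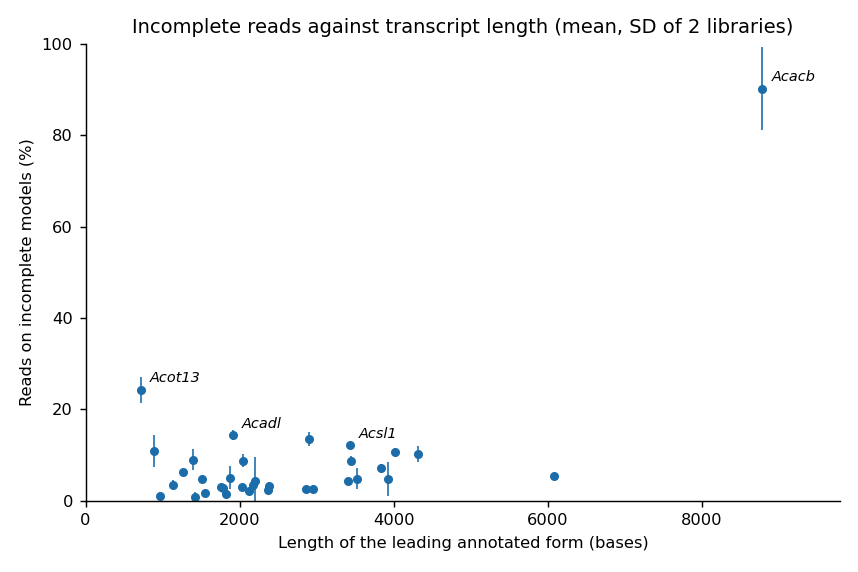
Share of each gene's reads on incomplete models, in percent (mean of the 2 libraries, bars SD), against the length of its leading annotated form in bases, for the 34 genes with at least 20 reads in each library. Acacb lies at 90.2% and 8788 bases, Acot13 at 24.3% and 721 bases, and the other genes lie below 20%.

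Further genes of these pathways, taken from lists outside the set, were measured in the same way. Of 46, 40 were detected in both libraries, 39 were tested and 0 passed between the libraries. They summed to 5075 ± 242 CPM, with a median log2 ratio of -0.06. The highest in activation and transport were Acss1, mitochondrial acetyl-CoA synthetase, at 342 ± 31.2 CPM and Slc25a20, the carnitine-acylcarnitine translocase that works between Cpt1b and Cpt2, at 127 ± 2.12 CPM. The translocase thus had fewer reads than either transferase in both libraries. Acly, ATP citrate lyase, at 87.2 ± 9.53 CPM stood far above Acaca at 3.32 ± 1.40 CPM. The highest peroxisomal genes were Phyh, phytanoyl-CoA hydroxylase, at 736 ± 23.3 CPM and Scp2, sterol carrier protein and thiolase, at 401 ± 4.35 CPM. Among other thioesterases Acot1 had 109 ± 5.20 CPM and Acot7 had 62.1 ± 3.76 CPM. Among the other ketone body genes, Slc16a1, a monocarboxylate carrier, had 118 ± 4.05 CPM. For branched-chain amino acids they were Hibadh, which acts after Hibch, at 353 ± 43.7 CPM and Aldh6a1, which acts after Hibadh, at 278 ± 27.7 CPM. Hibch was thus lower than both later enzymes of valine breakdown in each library.

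Promoter windows of 300 bases, 250 before and 50 after the start, were matched by symbol in RefSeq's table on GRCm38.p6 for 30 of the 37 genes, in 32 windows. They were searched on both strands for TCAAGGTCA, a motif of estrogen-related receptors, and for the DR1 element bound by PPAR with RXR, a direct repeat of AGGTCA with any single base between. The motifs can overlap, since both contain AGGTCA. Neither motif was in any of the 32 windows. Over all 32851 windows of the table, 0.423% held the former and 0.0396% the latter. Only exact matches were counted. At rates this low, 0 in 32 windows cannot tell the set from other genes.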

How the data were processed

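Long-read RNA sequencing was measured in 2 heart libraries. Per the file headers, the authors deposited whole-number read counts per transcript model, named by TALON, on mm10 with GENCODE M21, separately for each library. No source used here gives the aligner, its settings or tool versions. Replicate 1 held 896941 reads and replicate 2 held 972159, of which 12223 and 12825 were on spike-ins, which stayed out of totals and tests. Annotated models took 75.6% and 76.0% of the other reads, and incomplete ones 8.65% and 8.58%.

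Reads were summed per gene over all classes except genomic and divided by the totals to give CPM. Models were matched between libraries by chromosome, strand and intron chain. Detection asked for 3 reads or more in both libraries. Genes were compared with a two-sided exact binomial test, and form and exon shares with Fisher's exact test. Adjustment was by Benjamini-Hochberg over all genes or exons with a threshold of 0.05. Both tests were run on simulated counts that held set differences and otherwise only counting error. Such counts cannot show how the tests behave with a wider spread between libraries. With 1 library on each side, these tests cover counting error only. Python 3.11.15, scipy 1.17.1, pandas 2.3.3, edgeR 4.0.16 (TMM totals) and DESeq2 1.42.0 (size factors) in R 4.3.3 were used.

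The members and lists were chosen with earlier results of these data known. The rule for named genes gave values for members at 100 CPM or more, called, under 3 reads in a library, with a leading form under 90%, a partly included exon or an unannotated form with at least 10% of reads, and for the 2 highest of each other pathway list. A result that this rule would name is not reported here. Other members, and the counts of first exons and donors, were added after values were seen. Sequences came from RefSeq promoters (GRCm38.p6) and GENCODE M21 transcripts; no genome sequence was used. Alternatives were other classes of model, totals, minimums and each library alone.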

Additional observations from a re-analysis of the deposited data

Results flagged for a closer look

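Reads not counted in a gene's level were present at more than 3 in both libraries for several genes of the set, and no control samples exist to set them against. Antisense reads lie on loci of their own and stayed in the CPM totals, while genomic-class reads were left out of the totals too. Antisense models opposite Acot2 held 47 and 54 reads, beside 99 and 158 reads of Acot2 itself. Antisense models opposite Hadhb held 8 reads in each library. Those opposite Acacb held 6 and 5 reads, and those opposite Acadl held 5 and 4. Genomic-class reads, which match no splicing pattern, numbered 9 and 13 for Acsl1, 8 and 12 for Eci2, and 8 and 7 for Decr1. They numbered 5 and 9 for Crat and 5 in each library for Acad9. Whether these reads are transcripts was not tested.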

How the results depend on the processing

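With TMM totals the sum of the set was 29334 CPM, and with each library alone it ran from 29131 to 29539 CPM. It was 28474 CPM with the genomic class counted in, 33948 CPM from annotated models alone and 30239 CPM without incomplete models. The count of genes of the set differing between the libraries, 0 as reported, became 2 from annotated models alone (Etfb and Acot2), 3 without incomplete models (those and Eci1), 1 with DESeq2 size factors (Eci1) and 1 with a minimum of 50 reads (Eci1), so Eci1, Etfb and Acot2 lie near the threshold; for all genes it stayed within 120 to 178. Partly included exons, 2 as reported, were 0 at 10 to 90% inclusion and ran from 1 to 4 with each library alone. The 22 recurrent unannotated forms became 39 at 3 reads and 8 at 10 reads, and 30 with either library alone. Detected genes (34 to 36) and genes with a leading form under 90% (3 or 4) stayed within 1.5 times. Log2 ratios near 0 changed sign: from annotated models alone Cpt2 (-0.011), Crat (-0.015), Hadha (-0.014) and Eci2 (-0.037), without incomplete models Hadha (-0.012), with the genomic class Cpt2 (-0.0074), with TMM Cpt2 (-0.0089) and Hadha (-0.0015), and with DESeq2 Acsl1 (9.3e-05) and Acat1 (0.014). The causes were not tested. Counting the reads of overlapping same-strand models, an alternative chosen after seeing the data, moved the mean levels of Cpt1b and Etfb by less than 1 SD, but the added reads lay mostly in replicate 2: the log2 ratio became 0.26 for Etfb, which then passed (exact binomial adjusted p = 0.0176), and 0.19 for Cpt1b, which did not (0.408). No paired analysis was possible because there was 1 group. Depth limits the genes under 100 CPM, and forms under 5 reads were not counted.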
